A study of Rattus norvegicus with 4 samples.

Results

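The Rab GTPases are the largest family of small GTP-binding proteins of membrane traffic, and this report describes their transcripts in the rat mammary gland. Members were all genes whose single symbol in the platform annotation is Rab, a number and at most 1 letter more. Interactors such as Rab11fip1 and relatives such as Rabl3 were left out. The rule gave 56 genes among 14217 with a single symbol, measured by 97 probe sets, and 49 of the 56 lay above a floor signal of 91.5 in at least 1 array. Expression was measured on 4 Affymetrix arrays, 1 for each group: homozygous Hirosaki hairless rats (HHR) on lactation day 1, heterozygous HHR on lactation day 1, Sprague-Dawley rats (SDR) on involution day 1 and SDR on lactation day 1. HHR is a hairless mutant rat strain, and involution is the regression of the gland once milk is no longer removed. The labels give neither the mutated gene, the age of the dams, the length of lactation before involution nor the number of animals behind an array.

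A Rab protein switches between a GTP-bound form, which recruits effectors to a membrane, and a GDP-bound form that is carried back through the cytosol. Exchange factors load GTP, GTPase-activating proteins hasten its hydrolysis, and a lipid anchor added to the C terminus ties each Rab to its own compartment. In the lactating alveolar cell, vesicles from the Golgi carry casein and lactose to the apical membrane, and lipid droplets formed at the endoplasmic reticulum (ER) are released as milk fat globules. In the involuting gland the same cells take up residual milk and many of them die, with lysosomes and autophagy at work.

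With 1 array in a group there was no replicate error and no test, so every difference below compares single arrays and is described by its size. Signals are MAS5 intensities, and folds were computed after values under the floor were raised to it. A fold against a floored value is a lower bound, written as at least. Genes above the floor numbered between 10368 in heterozygous HHR and 10472 in SDR involution. All 10 milk-secreting epithelium markers on the array lay above the floor in every array, and the casein gene Csn2 had 46514, 55859, 43743 and 54651 in homozygous HHR, heterozygous HHR, SDR involution and SDR lactation. For the Gapdh control, signal at the 3' end divided by that at the 5' end, a ratio that grows with RNA degradation, was 2.30, 1.93, 1.60 and 1.17 in that order of arrays, lowest in SDR lactation. The same ratio for beta-actin was 5.91, 7.86, 4.80 and 4.60. The part of RNA quality in differences from SDR lactation was not tested. Fewer cells of a type and less RNA per cell cannot be told apart in these tissue samples.

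In involution against lactation of SDR, the family split both ways. Rab20, Rab24, Rab43 and Rab7b were at least 2-fold higher and Rab18, Rab40b and Rab3a at least 2-fold lower, 7 of 47 measured members (14.9%) beside 19.2% of all measured genes. By direction, 10.3% of all genes were higher and 8.94% lower. The share past 2-fold was thus no larger than in the background. At 1.5-fold, 9 members were higher and 11 lower, 42.6% in all beside 41.5% of all genes (23.5% higher and 18% lower). The median log2 difference was -0.04 over the Rab genes and 0.08 over all genes.

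Between homozygous HHR and SDR in lactation, Rab7b was at least 2-fold higher and Rab38 and Rab3a were at least 2-fold lower, 3 of 46 measured members (6.52%) beside 6.5% of all genes (3.77% higher and 2.72% lower). At 1.5-fold 4 were higher and 6 lower, 21.7% beside 22.2% of all genes (12.2% higher and 9.99% lower), and the median log2 difference of the members was -0.01. Both shares were close to the background. Between heterozygous HHR and SDR, 0 members were higher and 3 lower, namely Rab18, Rab38 and Rab40b, 6.52% beside 8.73% of all genes (4.58% higher and 4.15% lower). At 1.5-fold 2 were higher and 9 lower, 23.9% beside 26.8% of all genes (13.8% higher and 13% lower), so that the shares again did not exceed the background. Heterozygous values were below those of SDR in 34 of 46 members (73.9%), against 49% of all genes, with a median log2 difference of -0.21 over the members and 0.01 over all genes. Markers of other cell types went both ways there. Below SDR lactation lay 8 of 9 macrophage, 6 of 6 T cell and 5 of 5 endothelial markers, and the fibroblast markers summed to 41732 against 65009. Above it lay 6 of 7 myoepithelial, 3 of 3 neutrophil, 4 of 6 adipocyte and 2 of 2 skeletal muscle markers. Their part in the Rab values was not tested. Both comparisons use the same SDR lactation array.

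Between homozygous and heterozygous HHR, Rab40b and Rab7b were at least 2-fold higher and 0 members were lower, 2 of 46 members (4.35%) beside 6.9% of all genes (3.76% higher and 3.14% lower). At 1.5-fold 6 were higher and 0 lower, 13% beside 23.2% of all genes (12.3% higher and 11% lower). The differences were small but mostly of 1 sign, since 35 members were above 0 and 10 below it, 21.7% beside 49.8% of all genes below 0. Their median log2 difference was 0.18, beside 0.00 over all genes. The heterozygous array is also the one in which 34 of 46 members were below SDR lactation, so the 2 counts are not independent. Markers of other cell types went both ways in the same comparison. Above 0 were 6 of 6 fibroblast markers (median 0.70), 8 of 9 macrophage markers (median 0.46) and 4 of 5 endothelial markers. Below 0 were 7 of 10 luminal epithelium markers (median -0.16), 4 of 5 T cell, 4 of 6 adipocyte and 4 of 7 myoepithelial markers. The part of these cell types was not tested. In all, 8 members passed 2-fold in some comparison, 31 passed 1.5-fold in some comparison, and 18 lay above the floor somewhere without reaching 1.5-fold in any by floored values, which for members near the floor are lower bounds. The same counts over all genes were not computed. In involution alone, 19.2% of all genes passed 2-fold and 41.5% passed 1.5-fold. The plot of signals by array gives the values of the 31 members past 1.5-fold.

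**Figure D1:**
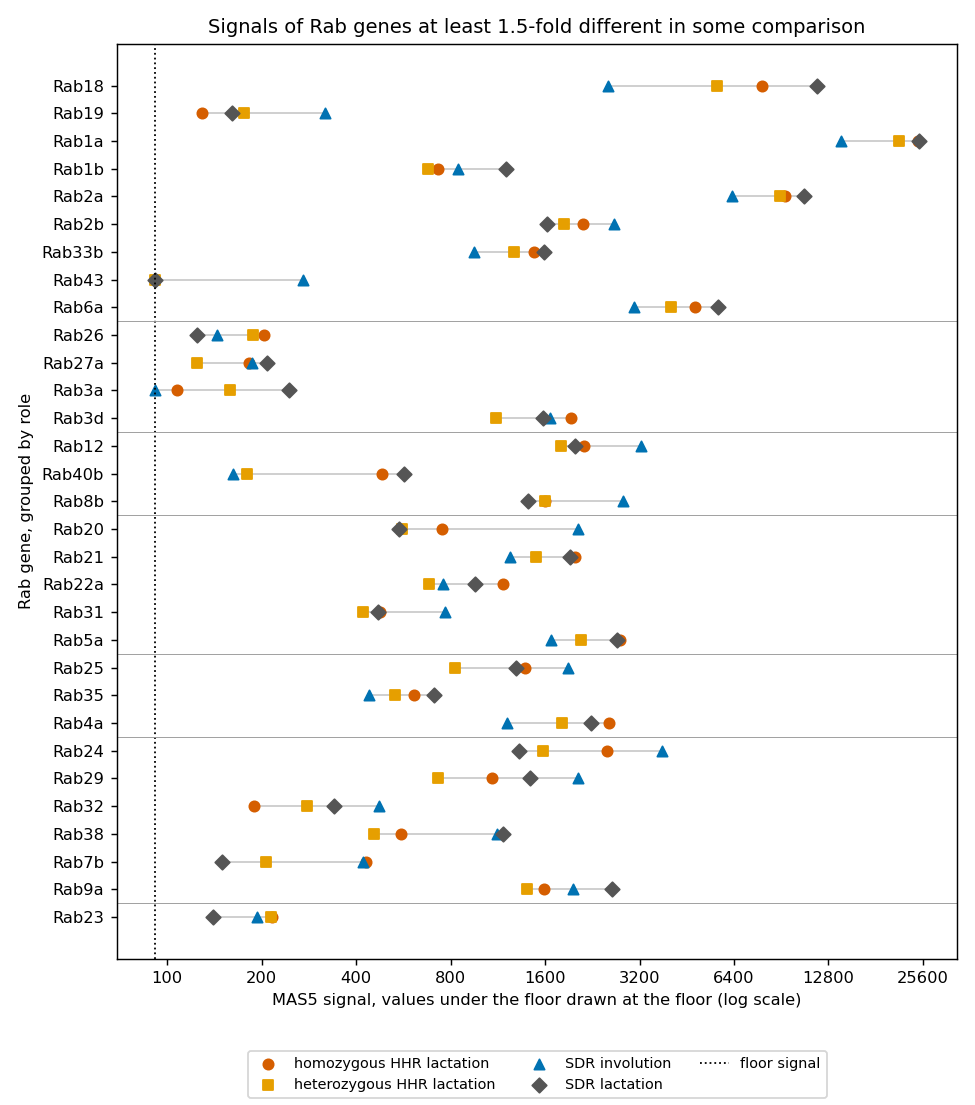
MAS5 signal on a log scale (x axis) of the 31 Rab genes (y axis, grouped by role, separated by grey lines) that differed by at least 1.5-fold in some comparison, with 1 point for each of the 4 arrays and values under the floor of 91.5 drawn on it. The SDR involution point stands far to the left for Rab18 and far to the right for Rab20, and both HHR points lie left of both SDR points for Rab38.

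Rab20, Rab43 and Rab18 were the members whose involution value lay at least 2-fold beyond all 3 lactation arrays, HHR included. Their involution difference thus does not rest on the SDR lactation array alone, but it does rest on the 1 SDR involution array. Rab43 and Rab18 were measured by 1 probe set each, without a second reading. Of 49 members, 2 were higher (Rab20 and Rab43) and 1 lower (Rab18), beside 3.88% of all genes for the higher direction and 4.19% for the lower. The shares of members lay near or below those of all genes. At 1.5-fold Rab8b, Rab12, Rab19 and Rab31 were also higher (6 members beside 10.8% of all genes) and Rab1a also lower (2 members beside 9.1%). The promoters of the 3 past 2-fold are given as the sequence context of these members, each with 250 bases before and 50 bases after the RefSeq start (assembly GRCr8), 5′ to 3′. Capitals mark a match to CACGTG, the E-box core bound by bHLH factors such as the lysosomal regulators of the Tfe family, and everything else is in lower case.
Rab20 promoter, GRCr8 chr16:84721177-84721476, plus strand: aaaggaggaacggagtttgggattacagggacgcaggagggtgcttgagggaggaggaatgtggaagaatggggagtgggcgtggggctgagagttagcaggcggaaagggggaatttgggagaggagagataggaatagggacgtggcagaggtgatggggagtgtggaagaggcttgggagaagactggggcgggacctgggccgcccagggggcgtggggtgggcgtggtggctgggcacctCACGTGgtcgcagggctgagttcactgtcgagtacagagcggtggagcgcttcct
Rab43 promoter, GRCr8 chr4:121826462-121826761, minus strand: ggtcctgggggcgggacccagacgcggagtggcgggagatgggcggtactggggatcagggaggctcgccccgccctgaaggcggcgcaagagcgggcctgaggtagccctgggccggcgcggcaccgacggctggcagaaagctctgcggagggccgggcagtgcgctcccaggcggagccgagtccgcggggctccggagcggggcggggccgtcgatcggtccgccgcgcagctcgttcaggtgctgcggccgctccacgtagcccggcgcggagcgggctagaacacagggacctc
Rab18 promoter, GRCr8 chr17:59639014-59639313, plus strand: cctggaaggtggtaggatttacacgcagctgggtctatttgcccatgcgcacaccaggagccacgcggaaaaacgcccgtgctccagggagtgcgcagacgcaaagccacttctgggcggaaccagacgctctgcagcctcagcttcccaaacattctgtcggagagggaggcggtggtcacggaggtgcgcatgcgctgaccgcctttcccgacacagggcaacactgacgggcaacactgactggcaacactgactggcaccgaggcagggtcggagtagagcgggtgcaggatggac
In the Rab20 window the E-box begins 5 bases before the start, and the windows of Rab43 and Rab18 hold none. CACGTG was in 4 of the 45 member promoters found in RefSeq (Rab20, Rab21, Rab31 and Rab5a), 8.89%, beside 6.65% of 27457 promoters. On both strands, the Stat site TTCNNNGAA was in 2 member promoters (4.44% beside 8.68%), the AP-1 site TGANTCA in 4 (8.89% beside 7.33%) and CCAAT in 17 (37.8% beside 37.7%). None of these 3 was in the windows shown. Member promoters had a median GC content of 63.7% beside 52.3% over all, and 42 of the 45 lay above the overall median.

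Among the Rabs of the ER and Golgi, Rab18, Rab1a, Rab2a, Rab6a and Rab33b were at least 1.5-fold lower in involution than in SDR lactation, whereas Rab43, Rab19 and Rab2b were higher. Rab18 had signals of 7838 in homozygous HHR, 5662 in heterozygous HHR, 2543 in SDR involution and 11759 in SDR lactation. Rab18, a GTPase of the ER and of lipid droplets, was thus lowest in involution and highest in SDR lactation, with both HHR arrays between. It was 4.62-fold lower in involution, 2.08-fold lower in heterozygous HHR and 1.5-fold lower in homozygous HHR than in SDR lactation. With quantile normalization the heterozygous log2 difference was -0.99, just short of 2-fold.

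Adipocyte markers moved with Rab18 in involution, where all 6 measured markers were below SDR lactation, 3 of them at least 2-fold, and the summed signal of the 7 on the array was 8947 against 31668. In homozygous and heterozygous HHR the sum was 21331 and 19100, but 4 of the 6 measured markers were above SDR lactation in each. Lep was under the floor in every array. Elf5, a transcription factor of the alveolar cell, had 3420.2 in involution against 13668 in SDR lactation. Of the 10 luminal epithelium markers that include Elf5, 7 were below SDR lactation in involution and 3 above. The part of adipocytes in the Rab18 values was not tested.

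Rab1a had signals of 24645 in homozygous HHR, 21449 in heterozygous HHR, 14009 in SDR involution and 24905 in SDR lactation. Rab1a, which directs vesicles from ER to Golgi, was 1.78-fold lower in involution and close to equal among the lactation arrays. Rab2a had signals of 9281 in homozygous HHR, 8997 in heterozygous HHR, 6300.0 in SDR involution and 10709 in SDR lactation. Rab2a, which acts between Golgi and ER, followed the same order at 1.7-fold lower in involution, and its other probe set was also lower (log2 difference -0.85). Rab6a had signals of 4818 in homozygous HHR, 4024 in heterozygous HHR, 3083 in SDR involution and 5707 in SDR lactation. Rab6a, of vesicles that leave or return to the Golgi, was 1.85-fold lower in involution. Rab33b had signals of 1481 in homozygous HHR, 1279 in heterozygous HHR, 948 in SDR involution and 1589.7 in SDR lactation. Rab33b, of Golgi and autophagosome and counted here with the Golgi Rabs, was 1.68-fold lower in involution.

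By the probe sets used for the genes, the close relatives Rab1b and Rab2b differed from Rab1a and Rab2a in their pattern. The other Rab2a probe set was also lower in HHR than in SDR lactation (log2 difference -0.68 in homozygous and -0.66 in heterozygous HHR). Probe sets shared by Rab1a and Rab1b, left out of the counts, were lower in both HHR arrays too. The contrast between these relatives is thus not settled. Rab1b had signals of 730.3 in homozygous HHR, 680.3 in heterozygous HHR, 848 in SDR involution and 1205 in SDR lactation. Rab1b was 1.65-fold lower in homozygous and 1.77-fold lower in heterozygous HHR than in SDR lactation, and all 4 of its probe sets were lower in both. Rab2b had signals of 2121 in homozygous HHR, 1836 in heterozygous HHR, 2652 in SDR involution and 1621 in SDR lactation, 1.64-fold higher in involution. The further Rab2b probe set had a log2 difference of -0.31, so that Rab2b has no settled direction.

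Rab43, which acts in ER and Golgi traffic, had 272 in SDR involution and lay under the floor in all 3 lactation arrays, at least 2.97-fold higher than in SDR lactation. With the floor at the 55th percentile its log2 difference was 0.45. Rab19 had signals of 129.7 in homozygous HHR, 176 in heterozygous HHR, 318 in SDR involution and 161 in SDR lactation, 1.97-fold higher in involution. Rab34 was 1.38-fold higher (1094 against 793), although its further probe set went the other way. Rab30 lay near the floor, under it in homozygous HHR and at 134 in SDR lactation, a difference of at least 1.47-fold. Rab33a was above the floor only in involution, and Rab6b, Rab36 and Rab39a were under the floor in every array. In the whole group, 5 of 12 measured members were at least 1.5-fold lower in involution and 3 higher, beside 18% and 23.5% of all genes, and 1 of the 3 was Rab2b. The median log2 difference was -0.37 beside 0.08 over all genes.

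**Figure D2:**
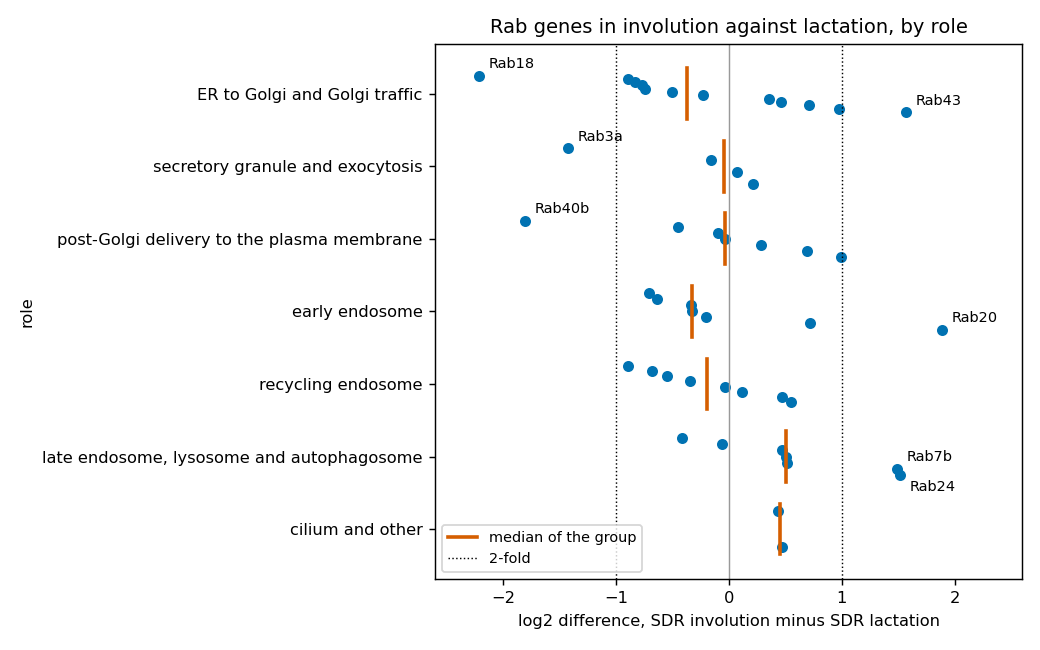
Log2 difference of SDR involution minus SDR lactation (x axis) for the 47 measured Rab genes, 1 point a gene, in 7 groups by role (y axis), with the median of each group as an orange bar and members past 2-fold named. The group of late endosome, lysosome and autophagosome has a median of 0.51 and the group of ER and Golgi one of -0.37.

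The Rabs of late endosomes, lysosomes and autophagosomes were led in involution by Rab24 and Rab7b. Of 7 measured members 5 were above and 2 below SDR lactation, beside 45.7% of all genes below 0, and 2 were past 2-fold higher, beside 10.3% of all genes. The 5 include Rab7a, whose probe sets disagreed. The group had a median log2 difference of 0.51 beside 0.08 over all genes. Rab24 had signals of 2521 in homozygous HHR, 1581 in heterozygous HHR, 3776 in SDR involution and 1318 in SDR lactation. Rab24, which acts in autophagy, was thus highest in involution and next in homozygous HHR. It was 2.87-fold higher in involution, 1.91-fold higher in homozygous HHR and 1.2-fold higher in heterozygous HHR than in SDR lactation, and its 1 probe set gives no second reading.

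Rab7b had signals of 429 in homozygous HHR, 207 in heterozygous HHR, 422 in SDR involution and 150.2 in SDR lactation. Rab7b, of traffic from late endosomes to the Golgi, was high in homozygous HHR and in involution and low in the other lactation arrays. It was 2.85-fold higher in homozygous HHR and 2.81-fold higher in involution than in SDR lactation, and 2.07-fold higher in homozygous than in heterozygous HHR. Its other probe set was also higher in involution (log2 difference 1.57) but was under the floor in homozygous HHR. With the mean of both probe sets the homozygous log2 difference from SDR was 0.76 and that from heterozygous HHR 0.52, both short of 2-fold.

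Rab7a had signals of 4139 in homozygous HHR, 3821 in heterozygous HHR, 5961 in SDR involution and 4168 in SDR lactation. Rab7a, the main GTPase of late endosome and lysosome fusion, was 1.43-fold higher in involution by this probe set, while the other had 1033 in involution against 1867 in lactation, so its direction is not settled. Rab29 had signals of 1085 in homozygous HHR, 732 in heterozygous HHR, 2041 in SDR involution and 1438 in SDR lactation. Rab29, which acts at the Golgi and at stressed lysosomes, was 1.42-fold higher in involution and 1.96-fold lower in heterozygous HHR. In the GRCr8 annotation 3 coding genes lie between Rab7b and Rab29 on chromosome 13.

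Rab32 and Rab38, sister GTPases of melanosomes and other lysosome-related organelles, were lower in HHR. Rab38 had signals of 556 in homozygous HHR, 456 in heterozygous HHR, 1126 in SDR involution and 1173 in SDR lactation. It was measured by 1 probe set, which gives no second reading. Both HHR arrays lay below both SDR arrays, with a gap of 2.02-fold between the nearest values, and Rab38 was the only 1 of 49 members with at least 2-fold between the pairs in either direction, beside 0.254% of all genes lower and 0.254% higher. At 1.5-fold it was again the 1 member lower, with 0 higher, beside 1.36% and 1.41% of all genes. Against SDR lactation it was 2.11-fold lower in homozygous and 2.57-fold lower in heterozygous HHR, the homozygous log2 difference being -0.96 with the floor added to each value. Rab32 had signals of 189 in homozygous HHR, 279 in heterozygous HHR, 473 in SDR involution and 341 in SDR lactation. Rab32 was 1.8-fold lower in homozygous and 1.22-fold lower in heterozygous HHR than in SDR lactation.

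Mast cell markers moved with Rab38. The summed signal of the 6 markers on the array was 578 in homozygous HHR, 452 in heterozygous HHR, 1389 in SDR involution and 1470 in SDR lactation. Cma1 (mast cell chymase) had 145 in homozygous HHR, 130.1 in heterozygous HHR, 565 in SDR involution and 622 in SDR lactation. The carboxypeptidase Cpa3 had 177 in both HHR arrays, 543 in SDR involution and 566 in SDR lactation. Of the other markers, Mcpt1 and Ms4a2 were under the floor in all 4 arrays, Tpsab1 was above it only in SDR lactation and Kit only in SDR involution. The pigment cell markers Tyr, Tyrp1, Dct and Mlana were under the floor in every array, and Pmel was above it only in heterozygous HHR, at 102. Among the endothelial and macrophage markers, Cldn5, Tek, Adgre1, C1qa and C1qc split likewise. Pecam1, Kdr, Vwf, Cd68, C1qb, Csf1r, Cd163, Mrc1 and Aif1 did not. Cldn5 (endothelium) had 201 in homozygous HHR, 149 in heterozygous HHR, 930.1 in SDR involution and 684 in SDR lactation. Adgre1 (macrophages) had 118 in homozygous HHR, 128 in heterozygous HHR, 639 in SDR involution and 333 in SDR lactation. The part of these cells in the Rab38 values was not tested.

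Rab9a had signals of 1592 in homozygous HHR, 1398 in heterozygous HHR, 1962 in SDR involution and 2609 in SDR lactation. Rab9a, which returns sorting receptors from late endosomes to the Golgi, was 1.64-fold lower in homozygous and 1.87-fold lower in heterozygous HHR than in SDR lactation, and its involution value lay between. Rab9b was under the floor in every array. The late endosomal group as a whole had a median log2 difference of -0.41 in homozygous and -0.29 in heterozygous HHR against SDR lactation, beside 0.02 and 0.01 over all genes. Of 7 members 5 were below 0 in each, beside 48.6% and 49% of all genes.

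**Figure D3:**
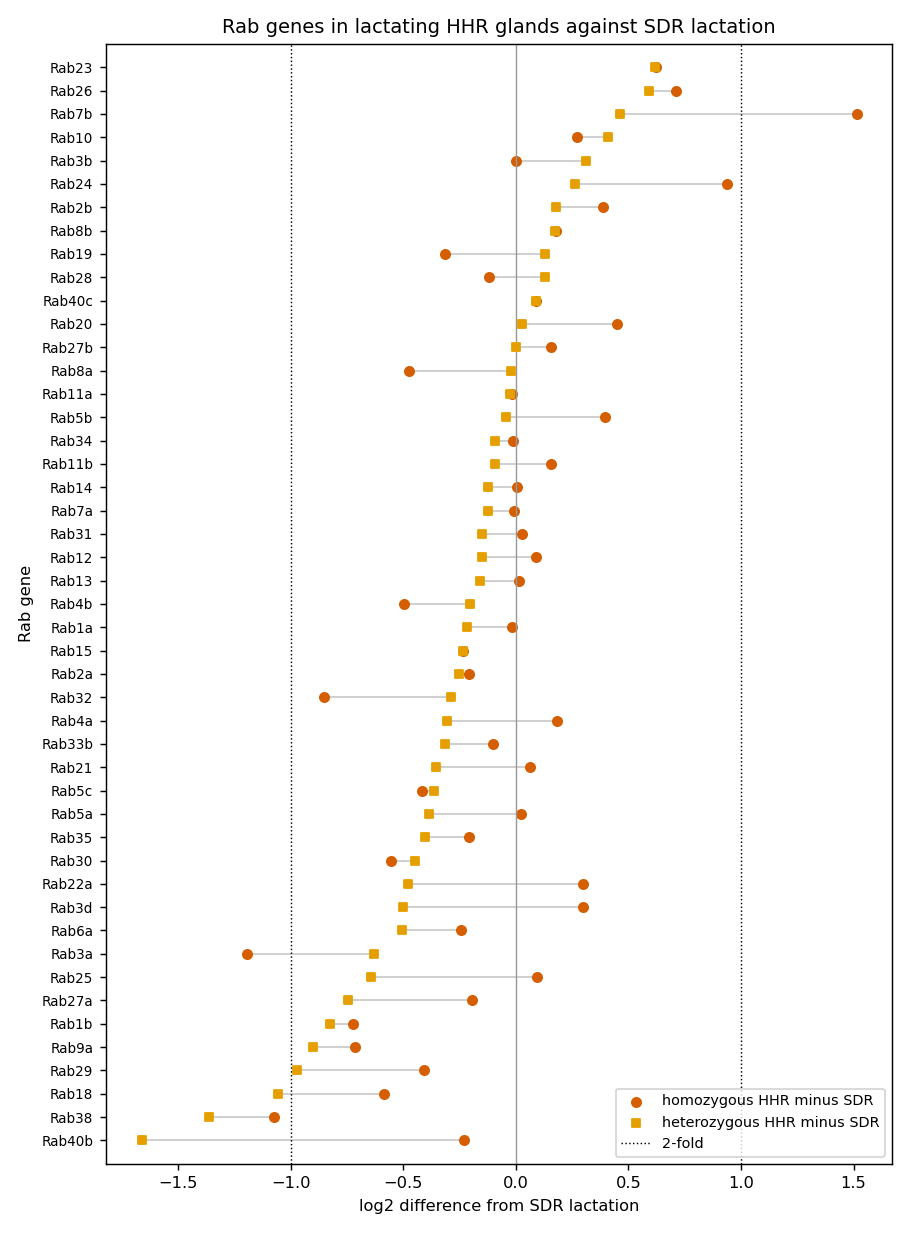
Log2 difference from SDR lactation (x axis) of homozygous HHR (circles) and heterozygous HHR (squares) for the 47 Rab genes (y axis) measured in either comparison, which share the SDR lactation array. Rab38 lies past -1 in both, Rab40b and Rab18 do so in heterozygous HHR and Rab3a in homozygous HHR, and Rab7b lies past 1 in homozygous HHR.

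Among the Rabs of early endosomes, Rab20 was the only 1 of 7 measured members past 2-fold in any comparison, by the probe sets used for the genes. Further probe sets of Rab5a and Rab5b passed it as well. Rab20 passed in involution only, a comparison with 19.2% of the background past 2-fold, 10.3% upward. A count of 1 in 7 thus lay near the background. Rab20 had signals of 749 in homozygous HHR, 559 in heterozygous HHR, 2033 in SDR involution and 548 in SDR lactation. Rab20, known from phagosome maturation, was thus highest in involution by a wide margin, 3.71-fold above SDR lactation, and its further probe sets were higher too, with log2 differences of 1.08 and 1.02. In the same array the summed signal of the 3 neutrophil markers was 4339, against 646 in homozygous HHR, 626 in heterozygous HHR and 195 in SDR lactation. S100a8, S100a9 and Csf3r were all under the floor in SDR lactation. In involution they had 2809, 1408.5 and 122, so that Csf3r stayed close to the floor. Of 9 macrophage markers 0 passed 2-fold in involution, with a sum of 7744 against 8304. The luminal keratin Krt8 was 4.37-fold higher in involution, but 7 of the 10 luminal epithelium markers were below SDR lactation (median log2 difference -0.35). The part of these cell types in the higher Rab20, Rab43, Rab24 and Rab7b values was not tested.

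Rab5a and Rab21 were lower in involution, and Rab31 was higher. Rab5a had signals of 2765 in homozygous HHR, 2083 in heterozygous HHR, 1668 in SDR involution and 2719 in SDR lactation. Rab5a, which drives early endosome fusion, was 1.63-fold lower in involution, and its further probe set was lower in all 3 other arrays than in SDR lactation (206, 277 and 343 against 988). Rab21 had signals of 2001 in homozygous HHR, 1499.7 in heterozygous HHR, 1234 in SDR involution and 1916 in SDR lactation. Rab21, of integrin uptake, was 1.55-fold lower in involution. Rab31 had signals of 478 in homozygous HHR, 422 in heterozygous HHR, 769 in SDR involution and 468 in SDR lactation. Rab31, a relative of Rab22a that also acts at the trans-Golgi, was 1.64-fold higher in involution, with a further probe set near the floor on the other side of 0. Rab5b had signals of 3491 in homozygous HHR, 2569 in heterozygous HHR, 2118 in SDR involution and 2649.8 in SDR lactation, highest in homozygous HHR. By this probe set Rab5b, an isoform of Rab5a, stayed within 1.5-fold in every comparison. Of its 4 further probe sets, 2 were past 1.5-fold lower in all 3 other arrays than in SDR lactation, the brighter with 421 in homozygous HHR, 405 in heterozygous HHR and 324 in SDR involution against 707. Rab5c, measured by 1 probe set, stayed within 1.5-fold, between 1277 in homozygous HHR and 1705 in SDR lactation, and Rab17 was under the floor in every array.

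Rab22a had signals of 1176 in homozygous HHR, 684 in heterozygous HHR, 757 in SDR involution and 955 in SDR lactation, 1.72-fold higher in homozygous than in heterozygous HHR. Another Rab22a probe set was past 1.5-fold in the opposite direction, so its direction is not settled. Against SDR lactation, 6 of 7 early endosome members were above 0 in homozygous HHR and 6 of 7 below 0 in heterozygous HHR, beside 48.6% and 49% of all genes below 0, none of them past 1.5-fold. Further probe sets of Rab5a, Rab5b, Rab20 and Rab22a lay below 0 in homozygous HHR. Between homozygous and heterozygous HHR, on the same HHR arrays, the group had a median log2 difference of 0.42, beside 0.00 over all genes.

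By the probe sets used for the genes, no recycling endosome Rab passed 2-fold in any comparison, whereas further probe sets of Rab11b and Rab14 did. Of all genes, 6.5% passed in homozygous and 8.73% in heterozygous HHR against SDR, 6.9% between homozygous and heterozygous HHR and 19.2% in involution. Rab4a had signals of 2551 in homozygous HHR, 1817 in heterozygous HHR, 1212 in SDR involution and 2247 in SDR lactation. Rab4a, of fast recycling, was lowest in involution, 1.85-fold below SDR lactation, with both HHR arrays above the involution value. Rab35 had signals of 611 in homozygous HHR, 533 in heterozygous HHR, 441 in SDR involution and 706 in SDR lactation. Rab35, which also acts in recycling, was 1.6-fold lower in involution. Rab25 had signals of 1379 in homozygous HHR, 828 in heterozygous HHR, 1898 in SDR involution and 1293 in SDR lactation. Rab25, an epithelial relative of Rab11, was 1.66-fold higher in homozygous than in heterozygous HHR and highest in involution. Rab11a had signals of 5981 in homozygous HHR, 5942 in heterozygous HHR, 8398 in SDR involution and 6047 in SDR lactation. Rab11a, of slow recycling, was 1.39-fold higher in involution and nearly equal in the lactation arrays, and its further probe set was also higher. All 8 members were below 0 in heterozygous HHR against SDR lactation, beside 49% of all genes, with a median log2 difference of -0.22. Of these Rab25 alone was past 1.5-fold, and Rab11a (-0.03) and Rab11b (-0.09) lay almost at 0. Rab14 had signals of 4358 in homozygous HHR, 3976 in heterozygous HHR, 4699.9 in SDR involution and 4337 in SDR lactation. Rab14, of traffic between Golgi and endosomes, was close to equal in all 4 arrays by this probe set, but its 5 probe sets ranged from -1.24 to 0.95 on the log2 scale in involution against SDR lactation. Rab11b had signals of 3715 in homozygous HHR, 3126 in heterozygous HHR, 2637 in SDR involution and 3338 in SDR lactation. By this probe set Rab11b was lowest in involution and, like Rab4b, within 1.5-fold throughout. Its other probe set had 590.3 in homozygous HHR, 581 in heterozygous HHR, 749 in SDR involution and 1439.6 in SDR lactation, past 2-fold lower in both HHR arrays, so the size of any Rab11b difference is not settled. Rab15 was above the floor only in the SDR arrays, close to it, at 105 in involution and 108 in lactation.

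Of the 8 secretory granule Rabs, 6 lay above the floor in some array, beside 11395 of 14217 genes. Rab3a, Rab3d, Rab26 and Rab27a lay above it in at least 3 arrays. Rab3d had signals of 1934 in homozygous HHR, 1113 in heterozygous HHR, 1655 in SDR involution and 1576 in SDR lactation. Rab3d, of exocrine granules, was 1.74-fold higher in homozygous than in heterozygous HHR, with both SDR arrays between. Rab27a had signals of 182 in homozygous HHR, 124 in heterozygous HHR, 186 in SDR involution and 208 in SDR lactation. Rab27a, which docks granules at the plasma membrane, was 1.67-fold lower in heterozygous HHR than in SDR lactation. Its further probe sets were above the floor only in SDR lactation, at 169 and 103. Whether Rab27a was lower in heterozygous HHR alone is thus not settled. Rab26 had signals of 204 in homozygous HHR, 188 in heterozygous HHR, 144 in SDR involution and 124 in SDR lactation. Rab26, of exocrine granule maturation, was 1.64-fold higher in homozygous and 1.51-fold higher in heterozygous HHR than in SDR lactation. With the floor at the 55th percentile the log2 differences were 0.04 and 0.00 for Rab26 and -0.07 for Rab27a.

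Rab3a had signals of 107 in homozygous HHR, 158 in heterozygous HHR, a value under the floor in SDR involution and 245 in SDR lactation. Rab3a, the GTPase of synaptic vesicles, was at least 2.68-fold lower in involution and 2.28-fold lower in homozygous HHR than in SDR lactation, at signals close to the floor. With the mean of both its probe sets the log2 differences were -0.95 and -0.71, and with the floor at the 55th percentile -0.31 in each. On the list for nerve and Schwann cells, the 4 markers on the array summed to 3923 in homozygous HHR, 4222 in heterozygous HHR, 1650 in SDR involution and 5055 in SDR lactation. Most of each sum came from Sox10, with 3381, 3683, 1272 and 3899 in that order. The neuronal Uchl1 and Snap25 were under the floor in every array. Whether S100b and Sox10 came from Schwann cells here was not tested, nor was the part of such cells in the Rab3a values. Rab27b was above the floor only in homozygous HHR and Rab3b only in heterozygous HHR, and Rab3c and Rab37 were under it in every array.

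Of the Rabs that deliver cargo from the Golgi to the plasma membrane, Rab40b stood apart. Rab40b had signals of 483 in homozygous HHR, 179 in heterozygous HHR, 162 in SDR involution and 567 in SDR lactation. Rab40b, which carries a SOCS box and joins a cullin ubiquitin ligase, was low in heterozygous HHR and involution and high in the other arrays. It was 3.16-fold lower in heterozygous HHR and 3.49-fold lower in involution than in SDR lactation, and 2.69-fold higher in homozygous than in heterozygous HHR. Its further probe set was above the floor only in SDR lactation, at 141, and with the mean of both the difference between homozygous and heterozygous HHR was 0.71 on the log2 scale.

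Rab8b had signals of 1602 in homozygous HHR, 1596 in heterozygous HHR, 2828 in SDR involution and 1417 in SDR lactation. Rab8b, of polarised delivery, was 1.996-fold higher in involution, just short of 2-fold, and by this probe set close to equal among the lactation arrays. Both further Rab8b probe sets were higher in involution as well. Rab12 had signals of 2128 in homozygous HHR, 1799.9 in heterozygous HHR, 3229.5 in SDR involution and 1999.9 in SDR lactation. Rab12, counted in this group although it steers receptors to degradation, was 1.61-fold higher in involution. A further probe set, under the floor in homozygous HHR and at 318 in SDR lactation, lay on the other side of 0. Rab10 had signals of 3784 in homozygous HHR, 4164 in heterozygous HHR, 3817 in SDR involution and 3133 in SDR lactation. Rab10, a target of Tbc1d4, was lowest in SDR lactation by this probe set, while its other one had 898, 1059 and 1345 against 1581 and was highest there, so its direction is not settled. By the probe sets used for the genes, Rab8a, Rab10, Rab13 and Rab40c stayed within 1.5-fold in every comparison. Rab8a was between 1877 in homozygous HHR and 2605 in SDR lactation, and Rab13, of tight junctions, between 773 in heterozygous HHR and 871 in homozygous HHR. Rab40c had 643 in both HHR arrays, 590.3 in SDR involution and 604 in SDR lactation.

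Rab23 had signals of 215 in homozygous HHR, 214 in heterozygous HHR, 193 in SDR involution and 139.6 in SDR lactation. Rab23, a brake on Hedgehog signalling at the cilium, was 1.54-fold higher in homozygous and 1.53-fold higher in heterozygous HHR than in SDR lactation. With the floor at the 55th percentile the log2 differences were 0.12 and 0.11. Myoepithelial markers moved with Rab23 and Rab26, with 6 of 7 above SDR lactation in each HHR array and sums of 35326 in homozygous HHR, 35781 in heterozygous HHR, 25388 in SDR involution and 21213 in SDR lactation. Their part was not tested. Rab28, also of the cilium, stayed within 1.5-fold throughout, between 1859.8 in homozygous HHR and 2738 in SDR involution.

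Several probe sets measured 27 of the members, and they often disagreed. In involution against SDR lactation, 15 of the 24 members with a further measured probe set had all of them in the same direction. The count was 9 of 21 in homozygous and 15 of 22 in heterozygous HHR against SDR, and 7 of 18 between homozygous and heterozygous HHR. The further probe sets lay below the one used for the gene in 65.7% of cases in involution, 75.8% in homozygous and 60.6% in heterozygous HHR against SDR, beside 60.8%, 67.1% and 63.8% over all genes. Between homozygous and heterozygous HHR, without the SDR lactation array, the share was 66.7% beside 54.5%. The Gapdh 3' to 5' ratio was lowest in SDR lactation and higher in homozygous than in heterozygous HHR, while the beta-actin ratio was lower in homozygous than in heterozygous HHR. Where in the transcript each probe set lies was not used here. The part of RNA quality in these disagreements was not tested.

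**Figure D4:**
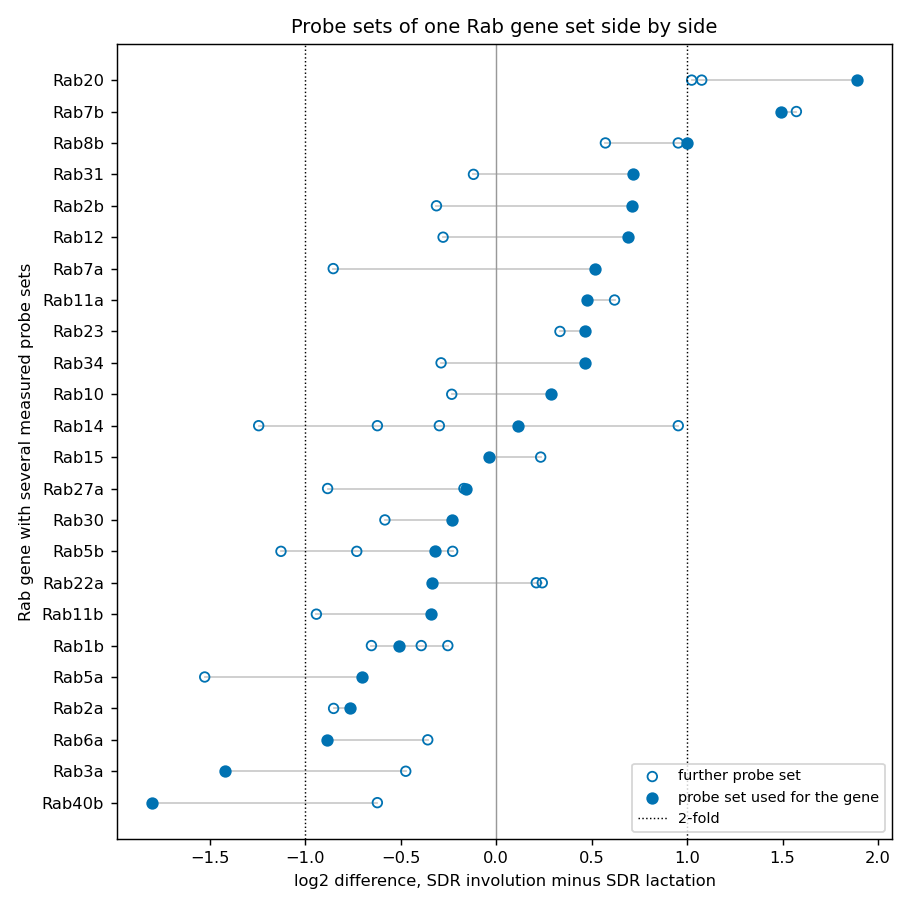
Log2 difference of SDR involution minus SDR lactation (x axis) for the 24 Rab genes (y axis) with several measured probe sets, with the probe set used for the gene as a filled point and each further one as an open point. All probe sets of Rab20 and of Rab7b lie past 1, whereas those of Rab7a, Rab12, Rab2b and Rab14 lie on both sides of 0.

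The genes that regulate or read the nucleotide state of Rabs were described by lists. Of 29 measured GTPase-activating proteins, 2 were at least 2-fold higher and 5 lower in involution against SDR lactation, beside 10.3% and 8.94% of all genes, with a median log2 difference of -0.22 beside 0.08 over all genes. Tbc1d4 had signals of 2798 in homozygous HHR, 4328 in heterozygous HHR, 657 in SDR involution and 4975 in SDR lactation. Tbc1d4, which inactivates Rab10 and related Rabs in insulin-regulated traffic, was 7.57-fold lower in involution. Tbc1d15, which acts on Rab7a, was 2.37-fold lower (1314 against 3115), Tbc1d14 was 2.1-fold lower and Evi5 was 2.05-fold higher. The others past 2-fold were Sgsm3 and Sgsm2, both lower, and Tbc1d1, the relative of Tbc1d4, which was 2.98-fold higher. In homozygous HHR against SDR 2 were higher and 0 lower, beside 3.77% and 2.72% of all genes. The 2 were Tbc1d8 at 2.63-fold and Tbc1d9 at 3.15-fold. In heterozygous HHR Tbc1d25 alone passed 2-fold, 2.09-fold lower than in SDR, beside 8.73% of all genes past it in either direction.

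Of 26 measured exchange factors, 3 were at least 2-fold higher and 0 lower in involution, beside 10.3% and 8.94% of all genes. The higher share was near that of all genes. Rin2 had signals of 6793 in homozygous HHR, 2040.3 in heterozygous HHR, 9493 in SDR involution and 2250.4 in SDR lactation. Rin2, which activates Rab5, was high in involution and homozygous HHR and low in the other lactation arrays. It was 4.22-fold higher in involution, 3.02-fold higher in homozygous HHR than in SDR lactation and 3.33-fold higher in homozygous than in heterozygous HHR. Mon1b, part of a complex that activates Rab7, was 2.06-fold higher in involution and 2.09-fold higher in homozygous HHR, and Dennd2d was 2.01-fold higher in involution. Rabgef1, which also activates Rab5, was 2.2-fold higher in homozygous than in heterozygous HHR. No exchange factor passed 2-fold between heterozygous HHR and SDR, beside 8.73% of all genes. Of the 5 measured genes of the Rab cycle and prenylation, Chm, the Rab escort protein, was at least 2.13-fold lower in involution, where it lay under the floor, and Gdi2, which extracts GDP-bound Rabs from membranes, had 11551 in involution against 9667 in lactation.

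Among 46 measured Rab effectors, 2 were at least 2-fold higher and 3 lower in involution, beside 10.3% and 8.94% of all genes. Inpp5b had signals of 7551 in homozygous HHR, 4551 in heterozygous HHR, 2049 in SDR involution and 6977 in SDR lactation. Inpp5b, a phosphoinositide phosphatase that binds Rabs, was 3.41-fold lower in involution, and Exph5, which binds Rab27, was 3.14-fold lower. Optn, a Rab8 effector and autophagy receptor, was 2.35-fold higher, and Micall2, which binds Rab8 and Rab13, was 2.18-fold higher. Eea1, the early endosome tether of Rab5, was 2.02-fold lower. In homozygous HHR against SDR, 1 of 46 effectors was higher and 1 lower, beside 3.77% and 2.72% of all genes. Mlph, which links Rab27a to myosin, was 2.06-fold higher and Osbpl1a, which binds Rab7 on late endosomes, was 2.88-fold lower. Between homozygous and heterozygous HHR 34 of 46 effectors were above 0 and 12 below, beside 49.8% of all genes below 0, with a median log2 difference of 0.26 beside 0.00. The marker lists mostly above 0 there (fibroblasts, macrophages) and mostly below it (luminal epithelium, T cells) are given with the Rab counts. In that comparison Exph5, Appl2 and Mlph were past 2-fold higher and Osbpl1a lower, beside 3.76% and 3.14% of all genes. Of 45 effectors Rabep2, which binds Rab5, alone passed 2-fold between heterozygous HHR and SDR. It was 2.47-fold lower, beside 8.73% of all genes past 2-fold in either direction.

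The exocyst and the SNARE proteins of the secretory route, on which Rab-guided vesicles dock and fuse, were more often below than above SDR lactation in involution, 18 against 13 of 31 measured genes, beside 45.7% of all genes below. At 2-fold 5 were lower and 1 higher, beside 8.94% and 10.3% of all genes. Bet1 had signals of 2792 in homozygous HHR, 2451 in heterozygous HHR, 1203 in SDR involution and 4446 in SDR lactation. Bet1, a SNARE of ER-to-Golgi fusion, was 3.7-fold lower in involution, with the HHR arrays between. Its partner Stx5 was 2.3-fold lower (894 against 2054), the endosomal Stx7 2.39-fold lower and Vamp4, of the trans-Golgi network, 2.21-fold lower. Nsf, which takes SNARE complexes apart, was 2.2-fold lower, and the exocyst subunit Exoc7 was 2.41-fold higher. In heterozygous HHR 26 of 31 were below SDR lactation, beside 49% of all genes, with a median log2 difference of -0.39 beside 0.01. In homozygous HHR 20 of 31 were below it, beside 48.6% of all genes, with a median of -0.18 beside 0.02. Ykt6, another SNARE of the Golgi, was 2.38-fold lower in homozygous and 2.13-fold lower in heterozygous HHR than in SDR lactation, and the exocyst subunit Exoc8 was 2.11-fold lower in homozygous HHR. These 2 comparisons share the SDR array.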

How the data were processed

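RNA of rat mammary gland was measured on 4 Affymetrix arrays, 1 a group. Each deposited value is a probe set's intensity, linear and computed with MAS5 per the submitters' processing notes, which give no version. From the values, the mean after leaving out 2% of probe sets at each end was 500.2 in every array. Detection calls were not used here. Groups came from the labels, and 0 columns were left unmapped.

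Of 31099 probe sets 57 were controls, 20826 had 1 symbol in the platform annotation, 436 several and 9780 none. Gene identifiers of 20758 were found in RefSeq (GRCr8), all 56 Rab genes among them. RefSeq Rab42 and Rab44 were not analysed here. Signals under the pooled 40th percentile (91.5) were raised to it before log2 was taken. A gene was its probe set of highest mean log2 value. A gene counted as measured when at least 1 array of the pair was above the floor, and calls were made at 2-fold. Full values were given for members past 1.5-fold in any comparison and the 10 of highest mean signal, and for companion lists up to 4 past 2-fold by brightness. The other list genes past 2-fold, and markers, are named to complete a count or beside a result they touch.

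Members and lists were chosen with earlier results of these data known. Each member was placed in a single role group, although some act at several places, and the group medians depend on that placing. Comparing both HHR arrays with both SDR arrays, and involution with all lactation arrays, was added after seeing the data. Alternatives were median centring, quantile normalization, floors at the 25th and 55th percentile, the floor as a pseudocount, probe sets of a gene averaged, probe sets without shared-probe suffixes, and thresholds of 1.5-fold and 3-fold. The steps were tested on simulated data. Python 3.11.15, numpy 2.4.6 and pandas 2.3.3 were used.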

Additional observations from a re-analysis of the deposited data

How the results depend on the processing

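The count of members past 2-fold stayed within 1.5 times of its value under 6 or more of the 7 alternatives to scaling, floor and probe set in 3 of the 4 comparisons, and under 5 between homozygous and heterozygous HHR. With the floor added as a pseudocount 1 member passed in homozygous HHR against SDR and 1 between homozygous and heterozygous HHR, where the mean of all probe sets gave 0. At 1.5-fold the counts were 10 in homozygous and 11 in heterozygous HHR against SDR, 6 between them and 20 in involution, and at 3-fold they were 0, 1, 0 and 3 in that order. Of 47 member differences past 1.5-fold, 1 reversed under any of the 7, that of Rab22a between homozygous and heterozygous HHR, at -0.016 with probe sets averaged. Of the 15 past 2-fold, 7 stayed past it throughout. With probe sets averaged the median log2 difference of the members in homozygous HHR against SDR was -0.22, against 0.02 with quantile normalization. In heterozygous HHR against SDR and between homozygous and heterozygous HHR, which share the heterozygous array, the median kept its sign under all 7. The cause of these changes was not tested. Members with low signals are limited by the floor, 1 array a group limits the precision of every value, and no member difference has a replicate error. No paired analysis was possible because each group has 1 array.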

Other observations

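Of the probe sets that the annotation gives to both Rab1b and Rab1a, 3 in all, 2 lay above the floor and were left out of every count because they name no single gene. The brighter of them had 498 in homozygous HHR, 433 in heterozygous HHR, 456 in SDR involution and 1147 in SDR lactation. The other had 365 in homozygous HHR, 307 in heterozygous HHR, 362 in SDR involution and 744 in SDR lactation. Both were highest in SDR lactation, as was the probe set used for Rab1b.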
